A study of Homo sapiens with 6 samples.

Results

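The genes of the spliceosome were examined in 786-O cells, an established human clear cell renal carcinoma line, with and without stable knockdown of YB1. Members were the genes to which the deposited annotation gives the KEGG spliceosome pathway, without the heat shock protein and translation initiation factor genes that KEGG also lists there. The pathway holds 133 genes in the table, and 6 genes beginning with HSP and 1 beginning with EIF were left out, so that 126 of 20030 genes were members. Of these, 120 had a mean of at least 1 FPKM over all libraries and were tested. FPKM scales fragment numbers by transcript length and by the mapped fragments of the library. The shYB1 group held 3 libraries of 786-O cells carrying a lentiviral small hairpin RNA (shRNA) against YB1, and the vector group held 3 libraries of 786-O cells carrying a scrambled shRNA in its place. Both groups were selected with puromycin and were at passages 16 to 18. The series' design text speaks of several shRNAs, whereas the labels give 1 shYB1 group, so an effect of a single hairpin outside its target cannot be told apart from an effect of YB1. The labels do not say that replicates came from separate cultures, so p-values measure only the spread between these libraries.

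The spliceosome removes introns from pre-mRNA. It is assembled anew on each intron from small nuclear ribonucleoproteins (snRNPs), each built of an RNA, a ring of Sm or LSm proteins and particle-specific proteins. U1 recognises the 5′ splice site and U2 the branch site, the U4/U6.U5 tri-snRNP then joins, and the PRP19 complex together with RNA helicases turns the assembly into an active enzyme. SR proteins, with domains rich in arginine and serine, bind exons and mostly promote their inclusion, whereas heterogeneous nuclear ribonucleoproteins (HNRNP proteins) coat pre-mRNA and often oppose it. YB1 is a cold-shock domain protein that binds DNA and RNA and has itself been found with splicing factors.

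YBX1, which encodes YB1, averaged 372 ± 5.70 FPKM with the vector and 169 ± 4.04 FPKM with shYB1 (SD, n = 3 each). Its log2 fold change was −1.14, with a standard error of 0.031 and an adjusted p of 1.53e-08 from limma. An exact two-sided permutation test gave p = 0.1, the smallest value that 3 against 3 libraries allow. Each library averages many cells, so that a change in all cells and a change in some of them cannot be told apart. Among the markers of the cell line, PAX8 and VIM were abundant at 77.1 and 1400 FPKM in vector cells, while the leukocyte marker PTPRC did not exceed 0.0164 FPKM in any library, the endothelial marker CDH5 was listed at 0 in all 6 libraries, and PECAM1, which is shared by endothelium and blood cells, lay between 0.230 and 0.406 FPKM. EPAS1 and CA9, a hypoxia-inducible factor subunit and a target of that pathway, were lower in every shYB1 library than in every vector library. EPAS1 averaged 84.3 and 79.8 FPKM and CA9 7.92 and 6.97 FPKM, and both were called only after the rescaling described next (adjusted p = 0.00858 and 0.0180 from limma, against 0.0798 and 0.0577 as deposited). The deposited values carry a small offset between the groups. Median-of-ratios size factors were 0.967 to 0.993 in vector and 1.02 in each shYB1 library, and across all 10439 tested genes the median log2 fold change was 0.055. Calls are given for FPKM as deposited, and the members whose call differs after division by these factors are named with their class or with the counts over all members.

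More spliceosome genes were called higher than lower in shYB1 cells. By limma, at an adjusted p under 0.05, 41 of the 120 members tested were higher (34.2%), where 18.7% of all genes tested were higher, and 2 were lower (1.67%), where 6.93% of all genes were lower. The members were more abundant than all genes tested (median 16.9 against 7.30 FPKM) and had smaller standard errors (median 0.050 against 0.062). Small changes are called more readily at smaller standard errors, and the shares were not compared at matched levels. The median log2 fold change of the members was 0.098, and 99 of the 120 values were above 0, where 6694 of the 10439 values of all genes were. After median-of-ratios rescaling 78 of the 120 and 5242 of the 10439 were above 0. The changes were small. The largest was 0.37, and 10 of 120 members differed by at least 1.2-fold in either direction, as did 1412 of the 10439 genes. There were 0 members that met the screening criteria of the study's methods (a change of 2-fold or more at an unadjusted p under 0.05), which 0.22% of all genes met. At an unadjusted p under 0.05 from limma, 57 of 120 members and 4073 of the 10439 genes passed. The shYB1 libraries all lay above the vector libraries in 55 members, or 45.8%, against 30.1% of all genes tested, and all below them in 5 members, or 4.17%, against 12.5% of all genes. After median-of-ratios rescaling the counts were 26 higher (21.7%, against 11.4% of all genes) and 6 of 120 lower (against 12% of all genes), and higher genes made up a smaller part of the calls. The 26 were all among the 41, and the 2 lower genes stayed lower. The 15 members called higher only as deposited were SNRPB, PHF5A, SF3B3, SNRPA1, SF3B2, PRPF4, PRPF8, DDX46, RBM17, SRSF7, SRSF9, TRA2A, ISY1, PRPF38A and MAGOHB, and the 4 called lower only after rescaling were HNRNPA1, LSM3, SRSF5 and ZMAT2. In all 41 the sign was the same under every alternative that tested the gene (14 for ISY1 and MAGOHB, 15 for the others), and 24 of the 41 were called in every alternative that tested them.

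**Figure D1:**
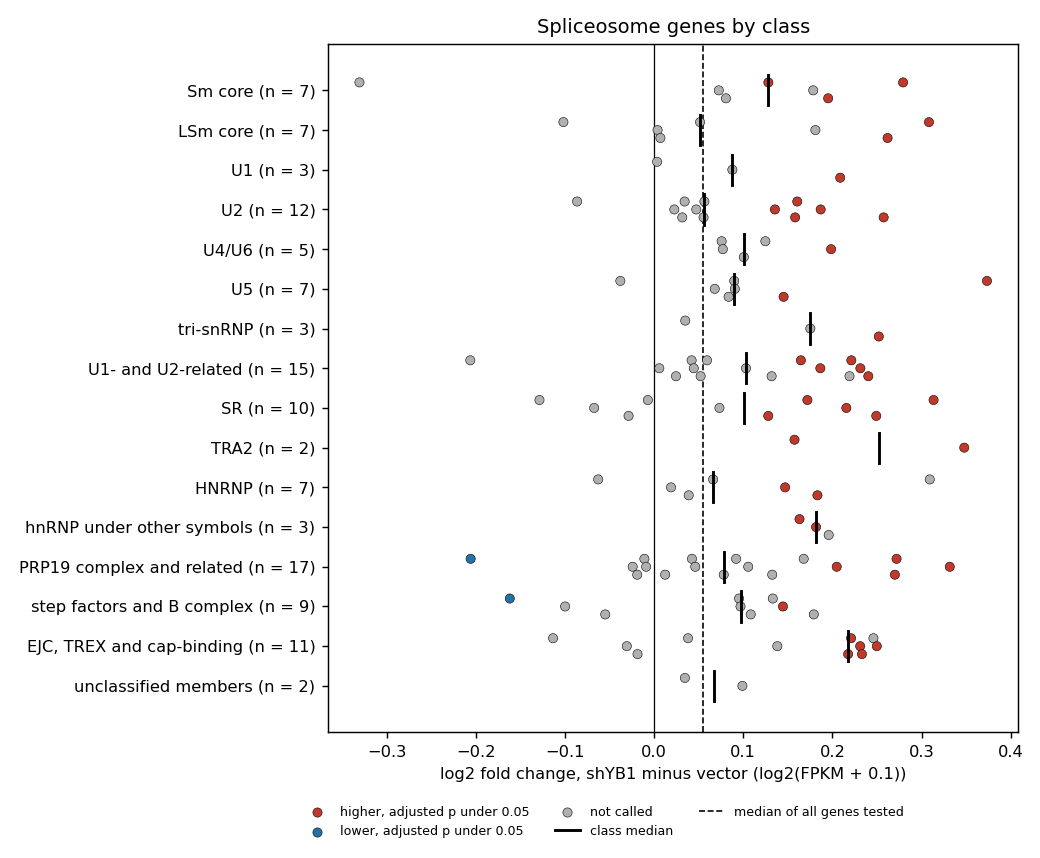
Log2 fold change of the 120 spliceosome genes tested, shYB1 minus vector, on the log2(FPKM + 0.1) scale. Each point is 1 gene, placed by class and shifted vertically only for legibility. Red points passed the test as higher (41 genes) and blue points as lower (2 genes). Thick bars mark class medians, and the dashed line is the median of all genes tested, 0.055. Most points lie to the right of 0, and none lies beyond 0.37.

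**Figure D2:**
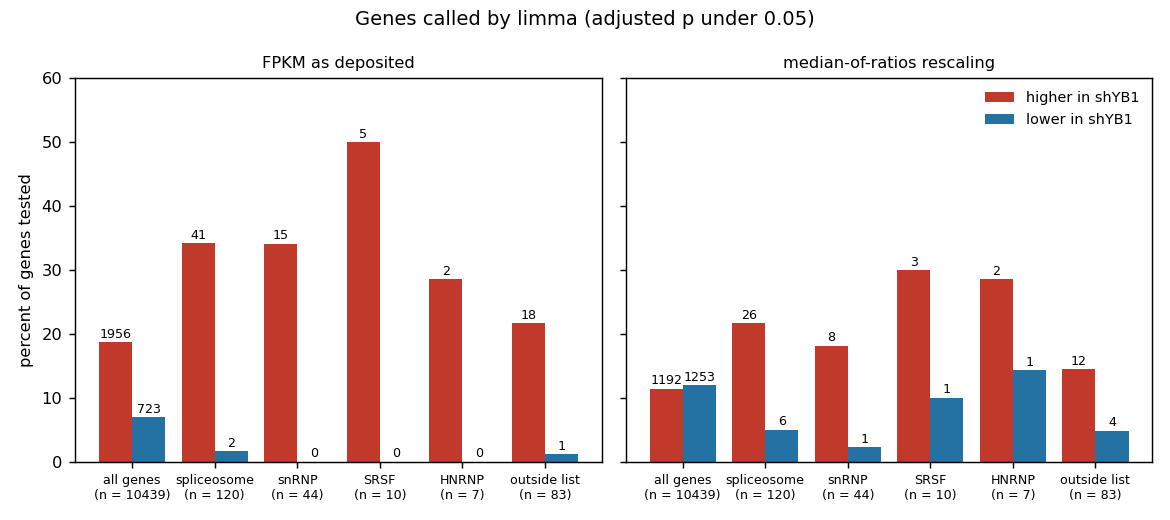
Percent of tested genes called higher (red) or lower (blue) in shYB1 cells by limma at an adjusted p under 0.05, with the number of genes above each bar. The left panel uses FPKM as deposited and the right panel the same values after median-of-ratios rescaling. Spliceosome genes were called higher in 34.2% of cases on the left and 21.7% on the right, against 18.7% and 11.4% of all genes.

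The 4 members with the largest rises were SNRNP40, TRA2B, PPIL1 and SRSF1, and the 2 that fell were SYF2 and SLU7. Their promoters are shown because YB1 takes its name from the Y-box, a CCAAT element read on either strand. The 250 bases before the start of each gene are given 5′ to 3′ on the gene's own strand, from RefSeq on GRCh38.p14, with each CCAAT or ATTGG in capitals. All 6 lie on the minus strand, and the windows are chr1:31296789-31297038 for SNRNP40, chr3:185938015-185938264 for TRA2B, chr6:36874804-36875053 for PPIL1, chr17:58007247-58007496 for SRSF1, chr1:25232503-25232752 for SYF2 and chr5:160419082-160419331 for SLU7.
SNRNP40: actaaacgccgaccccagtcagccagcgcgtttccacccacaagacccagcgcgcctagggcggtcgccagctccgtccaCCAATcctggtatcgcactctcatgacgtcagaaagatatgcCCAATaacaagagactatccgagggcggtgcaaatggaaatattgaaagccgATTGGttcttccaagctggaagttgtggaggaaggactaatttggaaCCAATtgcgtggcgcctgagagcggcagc
TRA2B: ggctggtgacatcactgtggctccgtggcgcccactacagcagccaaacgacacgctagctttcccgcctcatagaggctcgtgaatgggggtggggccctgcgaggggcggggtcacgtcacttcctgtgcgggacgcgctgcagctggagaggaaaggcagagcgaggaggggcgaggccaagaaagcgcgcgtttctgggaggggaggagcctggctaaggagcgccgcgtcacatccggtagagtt
PPIL1: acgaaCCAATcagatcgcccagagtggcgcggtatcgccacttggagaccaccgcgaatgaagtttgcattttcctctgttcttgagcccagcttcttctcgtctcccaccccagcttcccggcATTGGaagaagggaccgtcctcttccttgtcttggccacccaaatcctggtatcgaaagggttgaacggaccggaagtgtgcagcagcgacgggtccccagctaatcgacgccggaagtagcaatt
SRSF1: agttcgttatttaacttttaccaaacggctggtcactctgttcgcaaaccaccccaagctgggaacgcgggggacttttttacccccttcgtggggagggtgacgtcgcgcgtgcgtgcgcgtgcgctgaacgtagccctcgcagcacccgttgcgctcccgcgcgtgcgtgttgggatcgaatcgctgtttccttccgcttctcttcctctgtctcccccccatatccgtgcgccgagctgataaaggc
SYF2: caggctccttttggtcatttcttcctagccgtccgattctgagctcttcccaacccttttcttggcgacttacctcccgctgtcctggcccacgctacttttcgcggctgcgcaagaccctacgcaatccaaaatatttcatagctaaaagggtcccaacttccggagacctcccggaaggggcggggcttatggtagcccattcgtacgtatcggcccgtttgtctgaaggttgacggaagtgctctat
SLU7: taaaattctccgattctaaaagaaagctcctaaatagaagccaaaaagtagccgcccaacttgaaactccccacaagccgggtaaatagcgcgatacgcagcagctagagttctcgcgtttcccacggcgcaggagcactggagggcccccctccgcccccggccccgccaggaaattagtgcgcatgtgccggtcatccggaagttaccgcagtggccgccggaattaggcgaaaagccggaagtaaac
The SNRNP40 window holds 4 of these words, beginning 170, 128, 76 and 29 bases before the start, and the PPIL1 window holds 2, beginning 245 and 126 bases before it. The windows of TRA2B, SRSF1, SYF2 and SLU7 hold 0. CCAAT and ATTGG are the same element on opposite strands, and both were counted, overlaps included. A window was available for 35 of the 41 higher members, and 17 of these (48.6%) held the word on either strand. It was present in 23 of 67 windows of members that were tested and not called (34.3%), in 35.7% of the 8665 windows of all genes tested, and in 33.0% of the 27305 windows of the RefSeq promoter table, which covers more genes than the FPKM table. These shares describe letters only, and binding of YB1 was not measured.

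The snRNP proteins made up 44 members, all of them tested. Of these 15 were higher (34.1%, against 18.7% of all genes tested) and 0 were lower. The median log2 fold change was 0.089, with a range of −0.33 to 0.37. After median-of-ratios rescaling 8 were higher (18.2%, against 11.4% of all genes) and 1 was lower (2.27%, against 12.0%). The count of higher genes was 8 without shYB1 replicate 2 and 9 without vector replicate 1, and it was also 9 with a variance prior without trend.
In the Sm ring, shared by U1, U2, U4 and U5, 3 of 7 genes were higher (42.9%, against 18.7% of all genes tested). SNRPD1 had 22.4, 22.3 and 23.1 FPKM in vector and 26.7, 27.6 and 28.0 FPKM in shYB1 libraries, a rise of 21.4% (log2 fold change 0.28, standard error 0.038, adjusted p = 0.000702 from limma). The groups were well apart, with the lowest shYB1 library above every vector library. SNRPF rose from 31.1 ± 0.247 to 35.6 ± 2.23 FPKM (SD, n = 3 each, adjusted p = 0.0125 from limma). SNRPB, the most abundant Sm gene, had 142.3, 145.1 and 155.9 FPKM in vector and 158.5, 160.4 and 165.4 FPKM in shYB1 libraries. Its groups lay close to each other, its adjusted p from limma was 0.0351 as deposited and 0.144 after median-of-ratios rescaling, and it was called in 7 of 15 alternatives. SNRPG, singled out here for its value, had the lowest log2 fold change of all members, −0.33, with a standard error of 0.24 (adjusted p = 0.345 from limma). Its level was only 1.23 to 2.15 FPKM in vector and 1.07 to 1.89 FPKM in shYB1 libraries, and the groups overlapped.
The LSm ring is the counterpart of the Sm ring on U6 snRNA, and 2 of its 7 genes were higher (28.6%, against 18.7% of all genes). Its median log2 fold change was 0.052, slightly below the 0.055 of all genes tested. LSM2 rose from 33.0 ± 2.80 to 40.8 ± 1.15 FPKM (SD, n = 3 each, log2 fold change 0.31, standard error 0.056, adjusted p = 0.00353 from limma), and LSM4 from 67.0 ± 5.18 to 80.3 ± 1.59 FPKM (adjusted p = 0.00470 from limma). LSM3, the most abundant LSm gene, had 115.5, 107.7 and 111.4 FPKM in vector and 106.2, 102.7 and 102.8 FPKM in shYB1 libraries, with no overlap, a log2 fold change of −0.10 and an adjusted p of 0.0558 from limma, and it was called lower after median-of-ratios rescaling (adjusted p = 0.0131 from limma).

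Among the particle-specific proteins, 1 of 3 U1 genes, 5 of 12 U2 genes and 1 of 5 U4/U6 genes were higher. So were 2 of 7 U5 genes and 1 of 3 genes that join with the tri-snRNP. In these classes 0 genes were lower. Of all genes tested 18.7% were higher. The median log2 fold change of the U2 genes was 0.056, near the 0.055 of all genes tested. After median-of-ratios rescaling it was 0.00095, against 0.0010 for all genes. With this rescaling 1 of 12 U2 genes was higher (8.33%, against 11.4% of all genes). SNRPC, which stabilises the pairing of U1 with the 5′ splice site, rose from 54.6 ± 3.36 to 63.0 ± 1.86 FPKM (SD, n = 3 each, log2 fold change 0.21, adjusted p = 0.00931 from limma), while the other U1 proteins, SNRNP70 and SNRPA, had log2 fold changes of 0.0034 and 0.088 with overlapping groups. In U2, the higher genes were PHF5A, SF3A3, SF3B3, SNRPA1 and SF3B2, of which PHF5A, SF3B3 and SF3B2 belong to the SF3b complex that clamps the branch site. SF3A3 was the most reproducible of these. It had 20.4, 20.9 and 20.9 FPKM in vector and 23.3, 24.2 and 23.2 FPKM in shYB1 libraries (adjusted p = 0.00594 from limma), and it was the only U2 gene called after median-of-ratios rescaling. PHF5A had the largest U2 rise, at 0.26 on the log2 scale (standard error 0.079, adjusted p = 0.0411 from limma), but its groups overlapped at 14.5, 15.2 and 17.3 against 18.9, 20.4 and 17.0 FPKM, and it was called in 6 of 15 alternatives. SF3B5, the U2 gene with the highest level, had 91.3 ± 4.43 and 93.4 ± 3.93 FPKM (SD, n = 3 each) and was not called.
SNRNP40, a WD-repeat protein of the U5 snRNP on chromosome 1 (31259568 to 31296788, GRCh38.p14), had the largest rise of all members. It had 16.1, 15.6 and 17.2 FPKM in vector and 21.1, 20.2 and 22.1 FPKM in shYB1 libraries. Every shYB1 library was well above every vector library, and the rise was 29.5% (log2 fold change 0.37, standard error 0.051, 95% interval 0.26 to 0.49, adjusted p = 0.000703 from limma). It was called in 15 of 15 alternatives. PRPF8, the scaffold of the catalytic centre, had 30.6, 32.3 and 32.4 FPKM in vector and 34.5, 35.8 and 35.1 FPKM in shYB1 libraries (adjusted p = 0.0186 from limma), and this call was lost after median-of-ratios rescaling (adjusted p = 0.0790 from limma). PRPF4 of the U4/U6 particle had a log2 fold change of 0.20 and an adjusted p of 0.0489 from limma and was called in 6 of 15 alternatives, while SNU13, the U4/U6 gene with the highest level, had 30.3 ± 2.43 and 33.0 ± 0.697 FPKM (adjusted p = 0.121 from limma). SART1, needed for recruiting the tri-snRNP, rose from 10.5 ± 0.423 to 12.6 ± 0.812 FPKM (log2 fold change 0.25, adjusted p = 0.0101 from limma), whereas SNRNP27 stood at 21.0 ± 1.03 and 21.5 ± 0.451 FPKM.

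**Figure D3:**
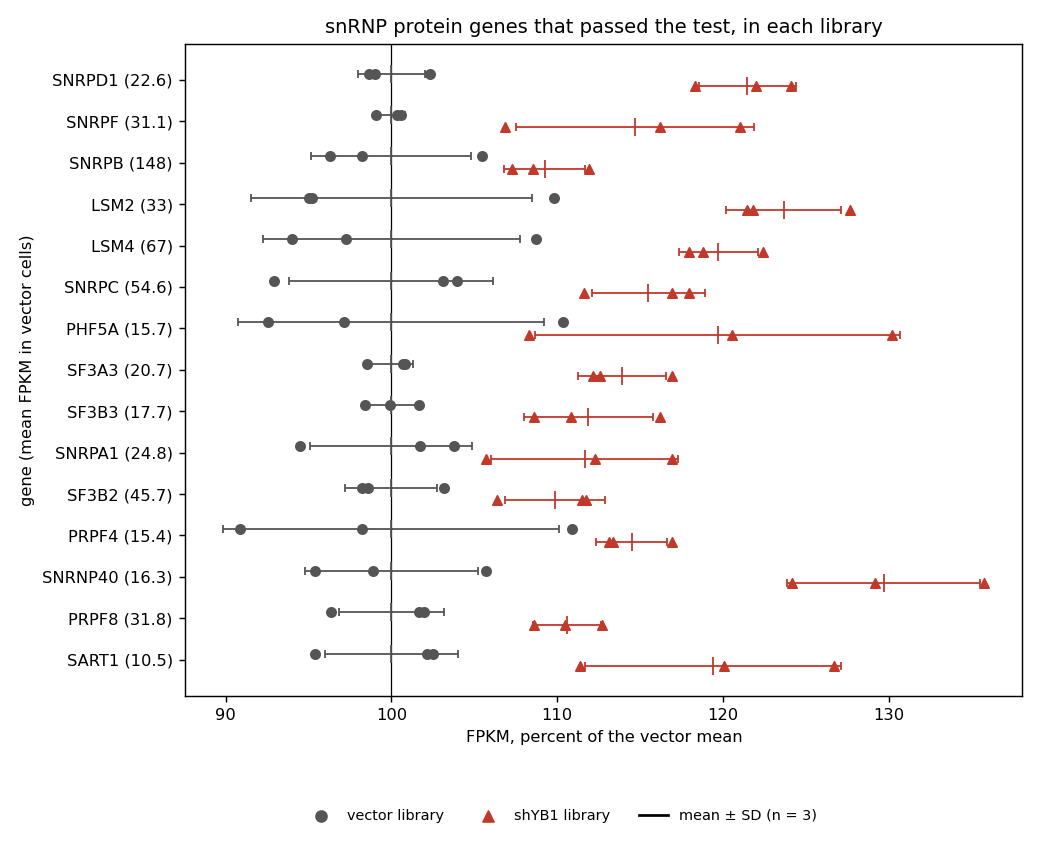
FPKM of the 15 snRNP protein genes that passed the test, in each library, as a percent of the gene's vector mean, which is given in brackets in FPKM. Grey circles are vector libraries and red triangles shYB1 libraries, with mean ± SD (n = 3). In SNRNP40 and SNRPD1 the groups were well separated, whereas in PHF5A a shYB1 library fell within the vector range.

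Proteins acting with U1 and U2 outside the particles gave 5 higher genes of 15 tested (33.3%, against 18.7% of all genes) and 0 lower. These were SMNDC1, PUF60, DHX15, DDX46 and RBM17, and after median-of-ratios rescaling the first 3 were called. DHX15, a helicase that takes spliceosomes apart, had 36.9, 35.1 and 34.3 FPKM in vector and 41.5, 41.7 and 40.7 FPKM in shYB1 libraries (log2 fold change 0.22, standard error 0.038, adjusted p = 0.00236 from limma). PUF60, which helps U2AF at the polypyrimidine tract, rose from 13.4 ± 0.880 to 15.7 ± 0.505 FPKM (adjusted p = 0.0124 from limma), and SMNDC1, an SMN-related factor of U2 assembly, from 7.74 ± 0.520 to 9.15 ± 0.355 FPKM (SD, n = 3 each, adjusted p = 0.0157 from limma). RBM17 was near the threshold (adjusted p = 0.0490 from limma) and was called in 4 of 15 alternatives. The helicase DDX5, the most abundant of this class, had 38.5 ± 1.53 and 39.7 ± 0.439 FPKM with overlapping groups.

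Of the 10 SRSF genes, 5 were higher and 0 were lower, and the other 5 had log2 fold changes between −0.13 and 0.073. SRSF1, the founding member of the family, lies on chromosome 17 from 57989038 to 58007246 (GRCh38.p14). It had 36.0, 36.7 and 37.3 FPKM in vector and 46.1, 46.0 and 44.6 FPKM in shYB1 libraries. The libraries of each group lay close together, and the gap between the groups was several times wider than either group. The rise was 24.3% (log2 fold change 0.31, standard error 0.034, 95% interval 0.24 to 0.39, adjusted p = 0.000166 from limma). SRSF3, the smallest SR protein, had 48.8, 48.5 and 50.4 FPKM in vector and 55.7, 60.3 and 59.6 FPKM in shYB1 libraries, a rise of 18.9% (adjusted p = 0.00151 from limma). SRSF7, its close relative, rose from 13.0 ± 0.866 to 15.1 ± 0.186 FPKM (SD, n = 3 each, adjusted p = 0.0145 from limma), and SRSF4 from 30.0 ± 0.731 to 33.8 ± 0.620 FPKM (adjusted p = 0.00731 from limma). The most abundant SRSF gene, SRSF9, had 102.0, 93.8 and 99.5 FPKM in vector and 108.9, 104.5 and 109.2 FPKM in shYB1 libraries, and its adjusted p of 0.0327 from limma rose to 0.212 after median-of-ratios rescaling. It was also not called without vector replicate 2 (adjusted p = 0.107 from limma), without shYB1 replicate 1 (0.101) and without shYB1 replicate 3 (0.0938).
Among the SRSF genes that did not pass, SRSF2 had 84.6 ± 1.25 and 89.0 ± 3.40 FPKM, SRSF10 13.3 ± 0.914 and 13.2 ± 0.499 FPKM, and SRSF6 49.0 ± 0.375 and 48.0 ± 1.10 FPKM in vector and shYB1 cells. SRSF5 had 60.3 ± 2.20 and 57.5 ± 1.57 FPKM, and SRSF8, a retrogene related to SRSF2, 5.29 ± 0.401 and 4.83 ± 0.280 FPKM (SD, n = 3 each). All 5 had overlapping groups. After median-of-ratios rescaling SRSF1, SRSF3 and SRSF4 were called higher, SRSF5 was called lower (log2 fold change −0.12, adjusted p = 0.0488 from limma), and SRSF7 was not called (adjusted p = 0.0688 from limma). Many SRSF genes make a second transcript with a premature stop from an exon that they themselves regulate, and FPKM per gene do not separate the isoforms.
The SR-like proteins TRA2A and TRA2B, which bind purine-rich exonic enhancers, were both higher. TRA2B had 11.2, 10.8 and 11.4 FPKM in vector and 13.8, 14.3 and 14.4 FPKM in shYB1 libraries. Its rise of 27.3% was well outside the spread of either group (log2 fold change 0.35, standard error 0.044, adjusted p = 0.000432 from limma). TRA2A rose less, from 11.6 ± 0.168 to 13.0 ± 0.354 FPKM (log2 fold change 0.16, adjusted p = 0.0253 from limma), and was called in 8 of 15 alternatives.

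**Figure D4:**
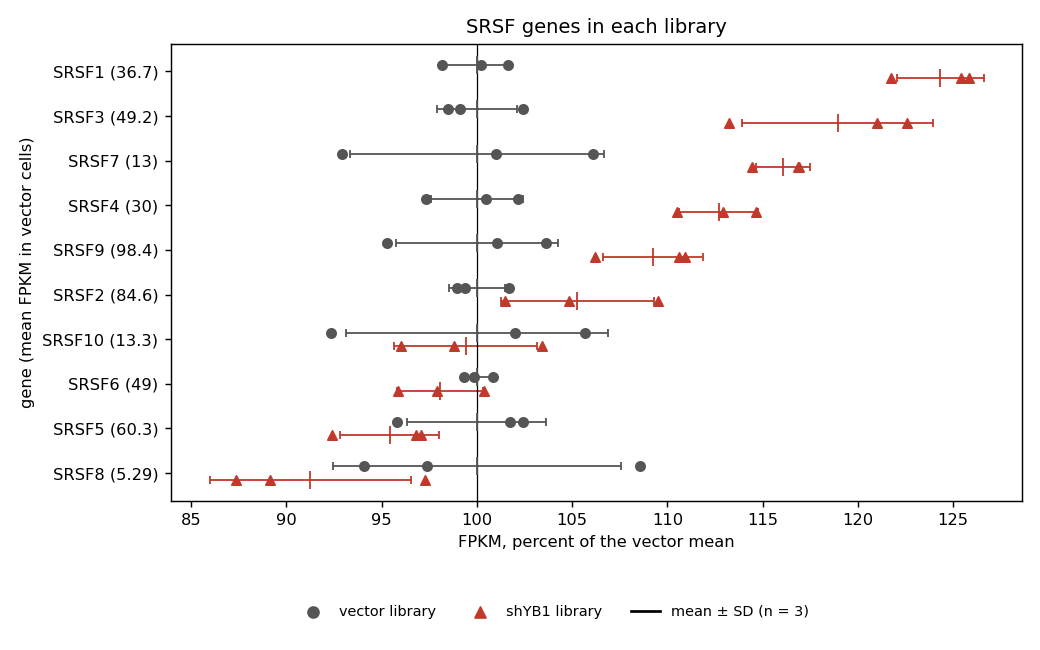
FPKM of the 10 SRSF genes in each library as a percent of the gene's vector mean, which is given in brackets in FPKM. Grey circles are vector libraries and red triangles shYB1 libraries, with mean ± SD (n = 3). SRSF1, SRSF3, SRSF7, SRSF4 and SRSF9 have all shYB1 libraries above all vector libraries, and the groups overlap in the other 5. Such a separation upward was present in 30.1% of all genes tested.

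Of the 7 HNRNP genes in the list, 2 were higher (28.6%, against 18.7% of all genes tested) and 0 were lower. The median log2 fold change of the 7 was 0.066. HNRNPA3 had 36.0, 34.5 and 36.4 FPKM in vector and 40.7, 40.6 and 40.2 FPKM in shYB1 libraries, a rise of 13.5% (log2 fold change 0.18, standard error 0.035, adjusted p = 0.00452 from limma). HNRNPU, a large nuclear matrix protein, rose from 52.9 ± 1.03 to 58.6 ± 0.258 FPKM (SD, n = 3 each, log2 fold change 0.15, adjusted p = 0.00794 from limma). Both were called in 15 of 15 alternatives.
HNRNPA1, the most abundant member of the whole list and a well known repressor of exon inclusion, had 268.4, 278.7 and 282.0 FPKM in vector and 261.9, 269.3 and 262.6 FPKM in shYB1 libraries. The groups overlapped by 1 library, and the log2 fold change of −0.063 (95% interval −0.13 to 0.0076) was not called as deposited (adjusted p = 0.172 from limma) and was called lower after median-of-ratios rescaling (−0.12, adjusted p = 0.00982 from limma). HNRNPK, HNRNPC and HNRNPM had log2 fold changes of 0.039, 0.019 and 0.066 with overlapping groups, and those of HNRNPK and HNRNPC turned below 0 after the rescaling (−0.016 and −0.036). HNRNPA1L2, a retrocopy of HNRNPA1, had 1.93 to 2.35 FPKM in vector and 2.41 to 3.23 FPKM in shYB1 libraries (adjusted p = 0.0761 from limma). It passed with the replicate block (adjusted p = 0.0319 from limma) and without shYB1 replicate 3 (0.0439), and its value is uncertain because 58.5% of its 50-base words occur in other genes, mainly in the far more abundant HNRNPA1.
Proteins of the same kind under other symbols included PCBP1 (hnRNP E1), which had 144.1, 145.4 and 150.9 FPKM in vector and 162.3, 163.3 and 167.5 FPKM in shYB1 libraries (log2 fold change 0.16, adjusted p = 0.00463 from limma), and RBMX (hnRNP G), which rose from 40.8 ± 1.63 to 46.3 ± 0.185 FPKM (adjusted p = 0.00622 from limma).
Summed over their genes, the 10 SRSF genes made 440 ± 3.61 FPKM in vector and 473 ± 4.90 FPKM in shYB1 cells, a ratio of 1.08. The 44 snRNP proteins made 1358 ± 47.6 and 1455 ± 18.7 FPKM, a ratio of 1.07, and the 7 HNRNP genes 692 ± 9.69 and 699.7 ± 5.98 FPKM (SD, n = 3 each), a ratio of 1.01. All 126 members together gave a ratio of 1.06. These sums are of FPKM as deposited, with the offset between the groups, and were not rescaled. In vector cells HNRNPA1 alone made 276 FPKM of the HNRNP sum and HNRNPK 173 FPKM. The 3 classes were not tested against each other.

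**Figure D5:**
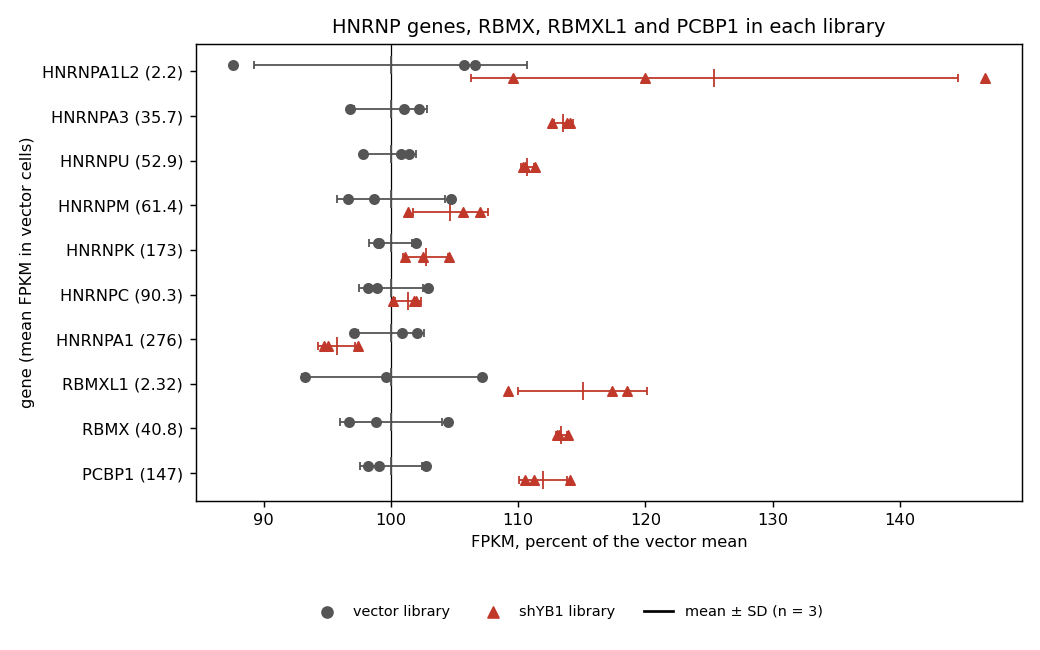
FPKM of the 7 HNRNP genes of the list and of PCBP1, RBMX and RBMXL1 in each library as a percent of the gene's vector mean, which is given in brackets in FPKM. Grey circles are vector libraries and red triangles shYB1 libraries, with mean ± SD (n = 3). HNRNPA3, HNRNPU, PCBP1 and RBMX have tight groups that do not overlap, whereas HNRNPA1 has a shYB1 mean below 100% in shYB1 cells.

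The PRP19 complex and its partners activate the spliceosome and hold it together during catalysis. Of 17 genes tested here 4 were higher (23.5%) and 1 was lower (5.88%), near the 18.7% and 6.93% of all genes tested. After median-of-ratios rescaling 3 were higher (17.6%, against 11.4% of all genes) and 1 was lower. PPIL1, a prolyl isomerase of the active spliceosome, had 10.8, 10.03 and 10.2 FPKM in vector and 12.9, 12.8 and 13.4 FPKM in shYB1 libraries, a rise of 25.8% (log2 fold change 0.33, standard error 0.047, adjusted p = 0.000843 from limma). PRPF19, the ubiquitin ligase that names the complex, rose from 28.7 ± 0.712 to 34.6 ± 0.890 FPKM (SD, n = 3 each, log2 fold change 0.27, adjusted p = 0.000811 from limma). ISY1 and BUD31 were the other 2 higher genes, with log2 fold changes of 0.27 and 0.20. BUD31 was called in 15 of 15 alternatives, and ISY1 in 9 of 14, with an adjusted p of 0.0505 from limma after median-of-ratios rescaling.
SYF2 fell. It had 17.8, 16.9 and 17.7 FPKM in vector and 14.9, 15.6 and 14.9 FPKM in shYB1 libraries, and all shYB1 libraries were below all vector libraries. Its expression dropped by 13.3% (log2 fold change −0.21, standard error 0.043, adjusted p = 0.00699 from limma), and it was called in 15 of 15 alternatives.
The factors of the catalytic steps and of the precatalytic complex gave 1 higher and 1 lower gene among 9. Each is 11.1%, against 18.7% higher and 6.93% lower among all genes tested. SLU7, which selects the 3′ splice site in the second step, had 6.35, 6.42 and 6.69 FPKM in vector and 5.65, 5.89 and 5.83 FPKM in shYB1 libraries (log2 fold change −0.16, standard error 0.053, adjusted p = 0.0476 from limma). The groups did not overlap, but the call was lost when any 1 of the 6 libraries was left out (adjusted p 0.0791 to 0.134 from limma). PRPF38A rose from 10.7 ± 0.0813 to 11.8 ± 0.209 FPKM (adjusted p = 0.0332 from limma) and was called in 6 of 15 alternatives. ZMAT2, the most abundant of this class, had 25.3 ± 0.597 and 23.6 ± 0.783 FPKM and was called lower only after median-of-ratios rescaling (adjusted p = 0.0170 from limma).

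Proteins that link splicing to the cap and to export had the highest median of the classes with more than 3 genes, 0.22. Of 11 genes tested 5 were higher (45.5%, against 18.7% of all genes tested) and 0 were lower, and 4 were higher after median-of-ratios rescaling. NCBP1 and NCBP2, the subunits of the nuclear cap-binding complex, rose together. NCBP1 had 8.01, 8.48 and 8.46 FPKM in vector and 10.2, 9.86 and 9.69 FPKM in shYB1 libraries (log2 fold change 0.25, standard error 0.049, adjusted p = 0.00498 from limma), and NCBP2 rose from 6.55 ± 0.175 to 7.63 ± 0.177 FPKM (adjusted p = 0.0118 from limma). The export adaptor ALYREF rose from 27.8 ± 0.342 to 32.8 ± 1.89 FPKM (adjusted p = 0.00471 from limma). RBM8A and MAGOHB of the exon junction complex had log2 fold changes of 0.22 and 0.23, and MAGOHB was called in 6 of 14 alternatives. The helicase DDX39B, with the highest level of this class, had 61.7 ± 3.89 and 67.8 ± 2.30 FPKM and did not pass as deposited (adjusted p = 0.0545 from limma). It passed with a common total (adjusted p = 0.0195 from limma), with a filter at 5 FPKM (0.0388), with the replicate block (0.0346) and without vector replicate 3 (0.00788). Of the 126 members, 8 are also in the KEGG list for mRNA surveillance, and 5 of these were higher (62.5%, against 18.7% of all genes tested). After median-of-ratios rescaling 4 of the 8 were higher. The 5 are the same higher genes of this class given above, not a further set.

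Splicing genes that KEGG does not list in the pathway were taken from further lists. Of 83 genes tested in these 6 lists, 18 were higher (21.7%) and 1 was lower, near the 18.7% of all genes that were higher. After median-of-ratios rescaling 12 were higher (14.5%, against 11.4% of all genes) and 4 were lower. The 4 were HNRNPUL1, SRRM2, CLK2 and RBM39. The difference between these lists and the KEGG members was not tested. The HNRNP genes outside the KEGG list gave 7 higher (43.8%) and 1 lower (6.25%) of 16, against 18.7% and 6.93% of all genes tested. HNRNPAB had 47.6, 49.1 and 50.7 FPKM in vector and 64.7, 64.0 and 67.1 FPKM in shYB1 libraries, a rise of 32.8% that exceeded that of every KEGG member (log2 fold change 0.41, standard error 0.036, adjusted p = 5.13e-05 from limma). SYNCRIP (hnRNP Q) rose from 18.1 ± 0.355 to 21.8 ± 0.748 FPKM (adjusted p = 0.00172 from limma), and the abundant HNRNPA2B1 from 186 ± 1.63 to 208 ± 2.02 FPKM (adjusted p = 0.00262 from limma). HNRNPUL1 fell from 50.8 ± 0.621 to 46.8 ± 0.399 FPKM (log2 fold change −0.12, adjusted p = 0.0194 from limma).
Assembly of snRNPs by the SMN complex and its partners gave 6 higher genes of 17 (35.3%, against 18.7% of all genes tested) and 0 lower. After median-of-ratios rescaling 4 of the 17 were higher (23.5%, against 11.4% of all genes). GEMIN6 had 3.64 ± 0.475 and 4.81 ± 0.161 FPKM (adjusted p = 0.0101 from limma). STRAP had 66.0 ± 1.46 and 75.8 ± 2.07 FPKM (adjusted p = 0.00243 from limma). SMN1 was also called, at 0.974, 0.938 and 0.780 FPKM in vector and 1.41, 1.17 and 1.92 FPKM in shYB1 libraries, but 86.5% of its 50-base words occur in other genes, chiefly SMN2, so its value is uncertain.
Of the SR protein kinases 1 of 8 was higher (12.5%, below the 18.7% of all genes tested). This was SRPK1, which phosphorylates SR proteins in the cytoplasm and rose from 13.9 ± 0.267 to 16.1 ± 0.320 FPKM (adjusted p = 0.00498 from limma). Other proteins with SR domains gave 2 higher genes of 11 (18.2%, near the 18.7% of all genes tested). These were RNPS1 (log2 fold change 0.27, adjusted p = 0.00287 from limma) and SON (0.13, adjusted p = 0.0284 from limma, and 0.166 after median-of-ratios rescaling). SRRM2, the most abundant of the 11, had 44.1 ± 1.49 and 41.3 ± 0.928 FPKM and was called lower after median-of-ratios rescaling (adjusted p = 0.0142 from limma). Among regulators of alternative splicing 2 of 22 were higher (9.09%, below the 18.7% of all genes tested). After median-of-ratios rescaling 0 of the 22 were higher. The genes higher as deposited included RBM10 (log2 fold change 0.21, adjusted p = 0.0450 from limma). NONO, the most abundant regulator, had 248 ± 5.99 and 247 ± 1.67 FPKM. In the minor spliceosome, which removes a rare class of introns, 0 of 9 genes passed with limma. Of all genes tested 18.7% were higher and 6.93% lower. In this list 1 of 9 had an unadjusted p under 0.05, beside the 4073 of 10439 genes given above.

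Not tested for low values were 6 members. RBMXL2 and RBMXL3 were listed at 0 in all 6 libraries, and CCDC12 and PRPF18 had means under 1 FPKM in both groups (0.606 and 0.678, and 0.727 and 0.735 FPKM). U2AF1 had 0.0277 to 0.410 FPKM in vector and 0.364, 2.43 and 0.216 FPKM in shYB1 libraries, and U2AF1L5 0.201 to 0.299 FPKM in vector and 0.143 to 0.182 FPKM in shYB1 libraries. The genes for U2AF1 and U2AF1L5 share 94.3% of their 50-base words in GENCODE transcripts, and the values of either are uncertain. Shared words exceeded 10% in 19 of the 126 members. Of SRSF1, 50.8% of the words also occur in AC015813.2, annotated on the same strand across its exons, or in other genes, and 46.2% of the exonic bases of SRSF9 and 52.2% of those of PCBP1 are overlapped by exons on the opposite strand. The same holds for 46.7% of those of BUD31. The strand setting of the counting is not given in the sources used here, so that reads of such partners cannot be told apart. ISY1-RAB43, a readthrough gene with 3.95 FPKM on average, and RP9 were the 2 tested members in no class, and neither was called. HNRNPA1 (22.8%) and HNRNPA3 (16.5%) share words mainly with processed copies.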

How the data were processed

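Libraries from mRNA sequencing were used, 3 of vector and 3 of shYB1 cells, grouped by the titles in the labels. The authors deposited FPKM per gene, in 1 column per library, of which 0 were set aside. Per the labels, the submitters' processing notes name Trimmomatic, HISAT2, Cufflinks, HTSeq and DESeq and the build GRCh38, without versions or roles. Without read counts in the table, sequencing depth is unknown and counting intervals cannot be given.

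Values were put on the log2(FPKM + 0.1) scale, and 10439 genes averaging 1 FPKM or more were kept. Fold changes are on this scale, which understates changes of low genes. Two-sided tests were run in limma 3.58.1 under R 4.3.3 with a robust, trended prior, and p-values were adjusted by Benjamini-Hochberg over every gene kept. Members and lists were chosen with earlier results of these data known. The genes named are YBX1, every SRSF and HNRNP member, the largest called change in each direction of each other class (up to 2 in classes of at least 10), the most abundant gene of each class and the members not tested; others were named after their values were seen. A gene that this rule names is not reported here. Classes were assigned by hand. On simulated data for this comparison, with 200 of 10439 genes changed, limma recovered 18, 154 and 197 at simulated log2 fold changes of 0.25, 0.5 and 1, with 2, 10 and 6 false calls. In the data 18.7% of genes were called higher and 6.93% lower, far more than the share changed in the simulation. The adjusted cutoff therefore differs, and these counts do not give the recovery in the data. Gene positions and promoters came from RefSeq (GRCh38.p14), with all 126 members matched by gene ID to positions and 110 to promoters. Shared words and overlaps came from GENCODE release 29. In 90 of 104 promoters of tested members, bases after the start were found near the beginning of a GENCODE transcript. Python 3.11.15, pandas 2.3.3 and matplotlib 3.10.9 were used for the rest. The alternatives changed the pseudocount (1, 0.01), the filter (none, 5 FPKM), the scaling, the variance prior, the replicate block and the libraries included.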

Additional observations from a re-analysis of the deposited data

How the results depend on the processing

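After median-of-ratios rescaling 26 spliceosome members were higher and 6 lower, 8 snRNP proteins higher and 1 lower, 3 SRSF genes higher and 1 lower, 1 HNRNP gene lower, and 4 of the splicing genes outside the KEGG list lower, and the median log2 fold change of the members was 0.044, against 0.0010 for all genes. Quantile normalization gave a member median of 0.039 and 4 lower genes outside the KEGG list. With a variance prior without trend 9 snRNP proteins were higher and 0 genes outside the list lower. With no filter 1 member was lower. Rescaling to a common total (TPM) and keeping genes averaging 5 FPKM or more each gave 1 lower snRNP protein. With each library left out in turn, 28 to 41 members were higher and 1 to 2 lower, 8 to 18 snRNP proteins were higher and 0 to 1 lower, 0 to 1 gene outside the list was lower, and the member median was 0.085 to 0.14, the highest without vector replicate 3.

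With a replicate block in limma, that is, the replicate number as a factor, 41 members were higher and 2 lower, and 1 snRNP protein was lower. Whether equal numbers pair the samples is not known. Deviations from the group means correlated at −0.169 to −0.00824 across genes between libraries with the same number, below those of some libraries with different numbers. With 3 libraries per group these deviations depend on each other, so the check cannot exclude a pairing. No library is shown to match its own number.

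No named gene that was called changed sign under any alternative run. Of the named genes that were not called, signs turned after median-of-ratios rescaling in DDX5 (−0.011), HNRNPC (−0.036), HNRNPK (−0.016), ISY1-RAB43 (−0.019), SF3B5 (−0.021), SNRNP27 (−0.020) and ZCRB1 (−0.039), after quantile normalization in HNRNPC (−0.030), ISY1-RAB43 (−0.024), SNRNP27 (−0.027) and ZCRB1 (−0.044), all log2 fold changes. With each library left out in turn, the values spanned 0 in ISY1-RAB43 (−0.016 to 0.11), NONO (−0.020 to 0.014), SF3B5 (−0.00290 to 0.067), SNRNP27 (−0.00282 to 0.067), SRSF10 (−0.063 to 0.034) and ZCRB1 (−0.017 to 0.046). The cause of these shifts was not tested.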
